A study of Mus musculus with 16 samples.

Results

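The genes followed here, 10 in number, mark the transitional state of injured alveolar epithelium and were read in alveolar epithelial type II (AT2) cells of newborn mice: the keratins Krt7, Krt8, Krt18 and Krt19, the junction gene Cldn4, the cell cycle gene Sfn, the galectin Lgals3, the growth factors Areg and Hbegf, and the integrin subunit Itgb6. They were found by gene symbol among the named features of the array, and 9 of the 10 were measured, of 20725 genes in all. Areg was not analysed here. Where a gene had more than 1 feature, the feature with the highest mean over the 16 samples stands for it, and the other feature is given beside it for Krt8, Cldn4 and Itgb6. Levels are log2 intensities on 1-colour Agilent arrays as the submitters deposited them, so a difference of 1 is a fold of 2.

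The samples were AT2 cells of pups at postnatal day 3. Pups heterozygous for Fgf10 (Fgf10+/-) gave 2 arrays from hyperoxia and 4 from normoxia, and wild-type pups gave 6 arrays from hyperoxia and 4 from normoxia, going by the sample titles. Hyperoxia was 85% oxygen in a chamber between day 0 and day 3 after birth, and the labels name no other allele or agent. The series text gives 4 samples per group instead, and the titles were followed. The 8 normoxia samples are listed before the 8 hyperoxia samples, with the genotypes mixed within each. If arrays were run in that order, which is not stated, a run effect cannot be told apart from oxygen. Nothing states that arrays of a group came from separate pups or litters, or how the cells were purified, so every p-value measures the spread between these arrays, which may be technical. In bulk RNA of this kind, fewer cells of a type and less RNA per cell cannot be told apart.

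After alveolar injury in mice, AT2 cells that are becoming type I (AT1) cells pass through an intermediate state that is rich in simple epithelial keratins, with Krt8 as its usual name gene. The same genes also belong to ordinary epithelia: Krt8 and Krt18 pair into filaments in simple epithelia, and Krt7 and Krt19 are abundant in airway epithelium. Areg and Hbegf encode ligands of the EGF receptor, and Itgb6 encodes the beta subunit of the integrin that activates latent TGF-beta at the epithelial surface. Fgf10 is a growth factor of the lung mesenchyme that acts on epithelial cells, and newborn mice kept in hyperoxia model bronchopulmonary dysplasia.

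The promoters of Krt8 and Krt18, of Krt7 and of Cldn4 are shown. The choice followed their profiles across the 16 arrays. Krt8 and Krt18 ran together (Pearson r = 0.918, and 0.977 after group means were removed). Krt8 ran less closely with Cldn4 (r = 0.857) and Krt7 (r = 0.758). Each promoter is the stretch of 250 bases before the gene's start in RefSeq (build GRCm38.p6), read in the direction of the gene. Krt7 lies at chr15:101412153-101412402 (plus strand), Krt8 at chr15:102004343-102004592 (minus strand), Krt18 at chr15:102027966-102028215 (plus strand) and Cldn4 at chr5:134946935-134947184 (minus strand). Capitals mark matches to any of the searched motifs.
Krt7: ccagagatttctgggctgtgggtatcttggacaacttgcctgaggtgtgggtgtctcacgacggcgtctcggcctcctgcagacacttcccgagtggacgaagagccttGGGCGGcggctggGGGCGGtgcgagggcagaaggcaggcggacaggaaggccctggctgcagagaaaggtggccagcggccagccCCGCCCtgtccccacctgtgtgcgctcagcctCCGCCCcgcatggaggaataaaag
Krt8: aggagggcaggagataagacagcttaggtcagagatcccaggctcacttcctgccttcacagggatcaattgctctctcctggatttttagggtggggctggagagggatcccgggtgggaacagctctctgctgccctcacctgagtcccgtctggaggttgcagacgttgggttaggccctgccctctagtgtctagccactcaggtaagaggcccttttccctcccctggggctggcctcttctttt
Krt18: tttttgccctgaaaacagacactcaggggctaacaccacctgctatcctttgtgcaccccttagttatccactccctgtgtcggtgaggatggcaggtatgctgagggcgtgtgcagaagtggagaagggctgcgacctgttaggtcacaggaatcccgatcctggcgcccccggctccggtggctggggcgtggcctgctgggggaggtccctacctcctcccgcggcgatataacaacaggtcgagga
Cldn4: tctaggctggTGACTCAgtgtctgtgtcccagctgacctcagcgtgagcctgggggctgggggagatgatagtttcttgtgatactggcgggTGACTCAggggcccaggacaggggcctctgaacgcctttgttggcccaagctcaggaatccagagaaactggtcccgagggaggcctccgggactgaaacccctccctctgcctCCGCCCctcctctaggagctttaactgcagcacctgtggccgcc

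The motifs searched, on both strands, were the TATA box (TATAAA), the AP-1 site (TGANTCA), the TEAD site (GGAATG) and the GC box (GGGCGG). They were present in 12.4%, 6.75%, 12.6% and 32.7% of the 32851 windows of this length in the promoter table, in that order. Positions count back from the gene's start to the first base of the match. The Cldn4 window held 2 AP-1 matches, at -240 and -158, and a GC box at -44. The Krt7 window held 4 GC boxes, at -141, -128, -56 and -24. The Krt8 and Krt18 windows matched none of the motifs, and neither did those of Sfn and Itgb6. Lgals3 had a GC box at -7, and Areg had a TATA box at -31 and a GC box at -52. Windows were found for 8 of the 10 genes, and Krt19 and Hbegf had none in the table. A match is a match of letters only.

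The arrays carried the AT2 label with high AT2 markers: Abca3, the lipid transporter of lamellar bodies, was between 11.6 and 13.3 on every array, and Sftpc, the surfactant protein C gene, lay at 15.95 to 15.98, the top of the scale. Markers of other lung cells were also high, among them Scgb1a1 of club cells (15.1 to 15.98), Ager of AT1 cells (10.8 to 12.5) and Msln of mesothelium (12.8 to 14.4). Of the 6 basal cell markers, Trp63 (8.20 to 10.3), Krt15 (4.79 to 10.3) and Aqp3 (6.92 to 8.93) were bright on most arrays, while Krt5 (3.41 to 6.42), Krt14 (4.11 to 6.72) and Ngfr (4.30 to 6.36) lay nearer the median of all values, 4.34. A pair of wild-type normoxia arrays had the highest mean of a list of markers of other cells. Replicate 1 had the highest smooth muscle and pericyte marker mean (9.57, against 6.31 to 8.82 on the other 15 arrays). Replicate 4 had the highest T cell and thymocyte mean (7.36, against 4.33 to 7.25), close to Fgf10+/- normoxia replicate 2. Fgf10+/- normoxia replicates 1 and 4 were also above 6. Being highest for a list was not particular to these arrays. Wild-type hyperoxia replicate 5 had the highest neutrophil (9.2) and erythroid (12.9) means, and wild-type hyperoxia replicate 1 the highest macrophage mean (6.91). Fgf10+/- normoxia replicate 4 had the highest club and secretory (13.6), basal (7.71) and mesothelial (9.24) means. Wild-type normoxia replicates 1 and 4 also had the lowest levels of the 9 genes in their group, so leaving them out follows the outcome as well. Values without both are given where they differ.

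Krt8, the gene that usually names the transitional state, was bright in every group and varied as much within groups as between them. It measured 12.28 and 12.35 in Fgf10+/- hyperoxia. In Fgf10+/- normoxia it measured 12.74, 11.98, 13.11 and 12.71. In wild-type hyperoxia it ranged from 11.07 through a median of 11.93 to 12.84, and in wild-type normoxia it measured 11.39, 13.20, 13.12 and 12.13. The groups overlapped, and the lowest array of all was in wild-type hyperoxia and the highest in wild-type normoxia. The other Krt8 feature was dimmer, at 9.49 to 11.8, and followed the first (Pearson r = 0.873 over 16 arrays).

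Krt18, the filament partner of Krt8, varied less than Krt8 and Krt19. Its values were 14.04 and 14.29 in Fgf10+/- hyperoxia, against 13.90, 13.42, 14.55 and 14.14 in Fgf10+/- normoxia. They ran from 13.16 through a median of 13.92 to 14.65 in wild-type hyperoxia, against 13.18, 14.66, 14.59 and 13.54 in wild-type normoxia. The 4 group means lay within 0.333 of each other, while the pooled SD within groups was 0.585.

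Krt19, an acidic keratin of simple and airway epithelium, measured 11.92 and 11.78 in Fgf10+/- hyperoxia, against 12.17, 11.68, 12.94 and 12.67 in Fgf10+/- normoxia. The wild-type hyperoxia arrays ranged from 10.70 through 11.62 to 12.34, against 11.18, 12.87, 12.91 and 11.87 in wild-type normoxia. Both hyperoxia means were below the normoxia mean of the same genotype, with overlapping arrays.

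Krt7, the keratin of ducts and airway epithelium, was together with Itgb6 the gene whose genotype groups lay farthest apart relative to their spread. It measured 11.08 and 10.34 in Fgf10+/- hyperoxia, against 10.64, 10.43, 11.46 and 11.26 in Fgf10+/- normoxia. Wild-type hyperoxia spanned 9.78 through 10.13 to 10.36, the tightest group of all (SD 0.21, n = 6), against 9.58, 10.84, 10.93 and 9.998 in wild-type normoxia. In hyperoxia the lower Fgf10+/- array lay just under the highest wild-type array.

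Cldn4, a claudin of epithelial tight junctions, had low intensities and the widest spread of the 9 genes. It measured 6.86 and 8.16 in Fgf10+/- hyperoxia, against 7.52, 6.24, 7.49 and 6.83 in Fgf10+/- normoxia. Wild-type hyperoxia ran from 4.58 through 6.73 to 8.22, a span of 3.64 that covers every other array, against 5.57, 7.71, 7.54 and 7.06 in wild-type normoxia. The second Cldn4 feature ranged from 4.87 to 8.21 (r = 0.857 with the first).

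Sfn, which encodes stratifin, a p53-induced inhibitor of the cell cycle, had low intensities as well. It measured 6.44 and 6.80 in Fgf10+/- hyperoxia, against 6.48, 6.54, 7.46 and 7.03 in Fgf10+/- normoxia. It ranged from 4.92 through 6.31 to 7.32 in wild-type hyperoxia, against 5.74, 7.88, 7.82 and 6.67 in wild-type normoxia. In wild-type normoxia replicates 2 and 3 exceeded all other arrays of the study.

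Lgals3, a galactoside-binding lectin that is also abundant in macrophages, varied least. It measured 12.79 and 12.40 in Fgf10+/- hyperoxia, against 12.57, 12.18, 13.07 and 12.57 in Fgf10+/- normoxia. Wild-type hyperoxia arrays ran from 11.84 through 12.47 to 12.64, against 11.83, 13.19, 12.87 and 12.52 in wild-type normoxia. The group means spanned 0.199. The macrophage marker mean was 5.21 to 6.91, and its members were mixed. Csf1r (9.07 to 10.1) was bright and Marco ran from 4.47 to 9.75, while Cd68 (3.11 to 5.17) and Fcgr1 (2.95 to 4.64) were dim. What part macrophages had in the Lgals3 level was not tested.

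Hbegf, the heparin-binding ligand of the EGF receptor, measured 10.18 and 9.61 in Fgf10+/- hyperoxia, against 10.48, 9.63, 10.73 and 10.24 in Fgf10+/- normoxia. It ranged from 8.85 through 10.03 to 10.36 in wild-type hyperoxia, against 9.71, 11.13, 11.29 and 10.07 in wild-type normoxia. The 2 brightest arrays were again wild-type normoxia replicates 2 and 3.

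Itgb6 had the largest distance between group means, 1.37. It measured 9.17 and 7.62 in Fgf10+/- hyperoxia, against 9.25, 8.01, 9.33 and 9.22 in Fgf10+/- normoxia. In wild-type hyperoxia it ran from 6.996 through 7.72 to 8.08, against 7.47, 8.48, 8.97 and 7.17 in wild-type normoxia. The 4 arrays above 9 were Fgf10+/- hyperoxia replicate 1 and Fgf10+/- normoxia replicates 1, 3 and 4, while replicate 2 of either Fgf10+/- group lay within the wild-type range. The second Itgb6 feature was dim, at 4.33 to 6.06 (r = 0.893 with the first).

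**Figure D1:**
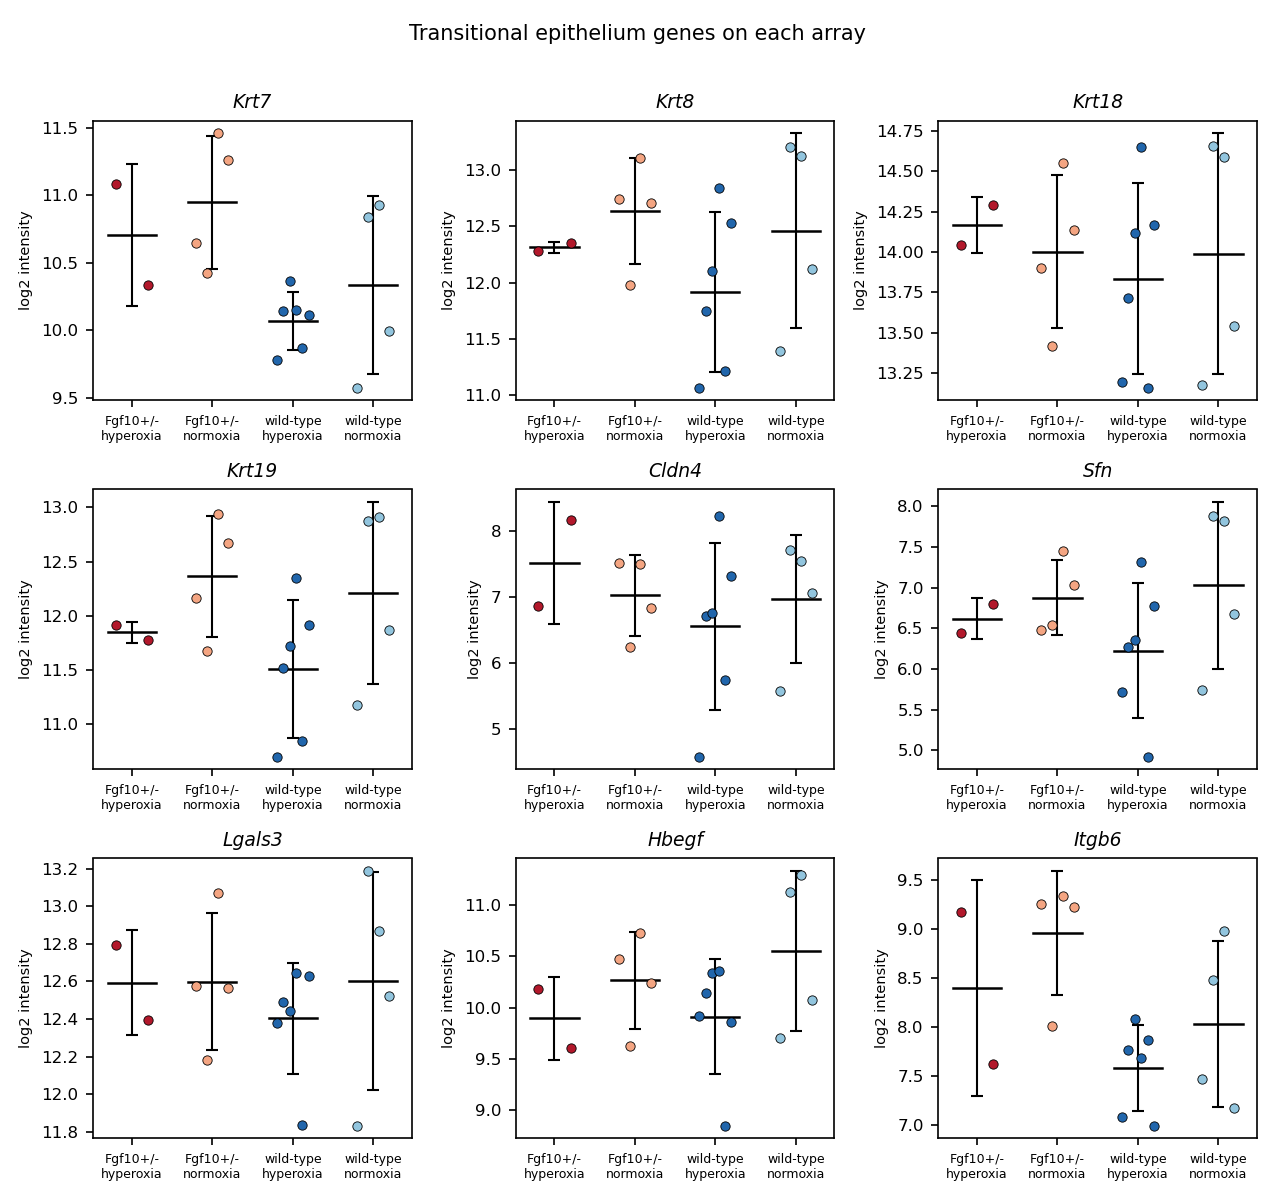
Log2 intensity of the 9 measured genes (y axis, a scale of its own for each gene) on every array, by group (x axis: Fgf10+/- hyperoxia, n = 2; Fgf10+/- normoxia, n = 4; wild-type hyperoxia, n = 6; wild-type normoxia, n = 4), with points for arrays, horizontal bars for group means and whiskers for SD. The groups overlap for every gene, and wild-type normoxia splits into 2 high and 2 low arrays for Krt8, Krt18, Sfn and Hbegf.

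Exposure to 85% oxygen did not move any of the 9 genes past the test in either genotype. Differences were tested with limma on all 16 arrays, and calls were made below an adjusted p of 0.05 (Benjamini-Hochberg over 20725 genes). In Fgf10+/- cells 0 of 9 were called between hyperoxia and normoxia, when 2.45% of all genes were called (1.18% higher and 1.26% lower). In wild-type cells 0 of 9 were called, when 3.13% of all genes were called (1.77% higher and 1.36% lower). Shares of this size correspond to less than 1 gene in 9.

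In Fgf10+/- cells, hyperoxia against normoxia gave differences between -0.56 for Itgb6 and 0.49 for Cldn4, with adjusted p between 0.653 and 0.9979. Krt8 averaged 12.32 ± 0.05 in hyperoxia (SD, n = 2) and 12.63 ± 0.47 in normoxia (n = 4), a difference of -0.32 with a 95% confidence interval of -1.43 to 0.79. Its other feature differed by 0.23, the opposite sign. Cldn4 averaged 7.51 ± 0.92 in hyperoxia and 7.02 ± 0.61 in normoxia, with an interval of -1.17 to 2.15, which includes a fold of 2 in either direction. Krt18 was the other gene with a positive difference (0.16), and the remaining 7 were negative. The median over the 9 was -0.26, beside -0.04 over all genes, and 9663 of all 20725 genes were positive. With each array centred on its median the median over the 9 was -0.16, and Lgals3 turned to 0.092. Without centring, the other features of Cldn4 and Itgb6 differed by 0.39 and -0.44.

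In wild-type cells all 9 differences were negative, from -0.16 for Krt18 to -0.80 for Sfn, and none passed the test (adjusted p between 0.352 and 0.859). Sfn averaged 6.23 ± 0.83 in hyperoxia (n = 6) and 7.03 ± 1.02 in normoxia (n = 4), with an interval of -1.75 to 0.15. Krt19 averaged 11.51 ± 0.63 in hyperoxia and 12.21 ± 0.84 in normoxia, a difference of -0.70 (interval -1.50 to 0.11). Hbegf averaged 9.91 ± 0.56 in hyperoxia and 10.55 ± 0.78 in normoxia, a difference of -0.64 (interval -1.38 to 0.10). The median of the 9 was -0.45, beside -0.08 over all genes, of which 12085 were negative and 8640 positive. Median centring moved the median of all genes to 0.033 and that of the 9 to -0.33, with all 9 still negative. Without centring, the other features of Krt8, Cldn4 and Itgb6 differed by -0.27, -0.04 and -0.49.

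The size of the wild-type difference depended on which normoxia arrays were used. Without normoxia replicates 1 and 4 the 9 differences ran from -0.62 for Lgals3 to -1.62 for Sfn, 7 of the 9 had an unadjusted p under 0.05, and still 0 were called (smallest adjusted p 0.107, for Hbegf). Krt8 then differed by -1.24, Krt19 by -1.38 and Itgb6 by -1.15. Replicates 1 and 4 were the lowest of the normoxia group for each of the 9 genes, so leaving them out raised every normoxia mean. With the ciliated marker mean of each array as a covariate, a setting chosen after seeing the data, all 9 differences moved upward: Krt8 differed by -0.074, Krt19 by -0.26 and Sfn by -0.28, while Krt18 (0.25), Cldn4 (0.30) and Lgals3 (0.017) were positive. Such a fit cannot tell fewer cells of a type from less RNA per cell, so the part of ciliated cells in the differences was not tested.

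The Fgf10 genotype did not move any of the 9 genes past the test either. In hyperoxia 0 of 9 were called between Fgf10+/- and wild-type cells, when 0% of all genes were called, and 906 of the 20725 genes had an unadjusted p under 0.05. In normoxia 0 of 9 were called, when 0.00965% of all genes were called (2 genes).

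Itgb6 and Krt7 had the largest genotype differences in normoxia, both higher on average in Fgf10+/-. Itgb6 averaged 8.96 ± 0.63 in Fgf10+/- normoxia and 8.03 ± 0.84 in wild-type normoxia (SD, n = 4 each), a difference of 0.93 with an interval of 0.01 to 1.84 (limma unadjusted p = 0.0471, adjusted p = 0.820). Krt7 averaged 10.95 ± 0.49 in Fgf10+/- normoxia and 10.34 ± 0.66 in wild-type normoxia, a difference of 0.61 (interval -0.04 to 1.27, limma adjusted p = 0.841). The other Itgb6 feature differed by 0.46. The remaining 7 genes differed by -0.28 (Hbegf) to 0.17 (Krt8), and the median over the 9 was 0.055, beside -0.015 over all genes. The other Krt8 feature differed by -0.06, the opposite sign, and the other Cldn4 feature by 0.10.

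The difference of Itgb6 and Krt7 was smaller with AT1 markers as a covariate or without wild-type normoxia replicates 1 and 4. With the AT1 marker mean as a covariate the normoxia difference was 0.16 for Itgb6 and 0.17 for Krt7. That covariate was chosen after seeing the data, and both genes ran with it over the 16 arrays (r = 0.925 and 0.857). Such a fit cannot tell fewer cells of a type from less RNA per cell, so the part of AT1 cells in the difference was not tested. Without wild-type normoxia replicates 1 and 4 the difference was 0.23 for Itgb6 and 0.065 for Krt7. Those replicates held the 2 lowest wild-type normoxia values of both genes (Itgb6 7.47 and 7.17, Krt7 9.58 and 9.998). The AT1 marker mean itself was 9.81 to 10.7 in Fgf10+/- normoxia and 9.34 to 10.5 in wild-type normoxia. Of its 11 markers 0 were called, when 0.00965% of all genes were, a share that corresponds to less than 1 gene in 11. The median difference of these markers between Fgf10+/- and wild-type cells was 0.541 in normoxia, beside -0.015 over all genes. In hyperoxia it was 0.609, beside 0.021 over all genes.

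In hyperoxia 8 of 9 genes were higher on average in Fgf10+/- than in wild-type cells, with a median of 0.39 beside 0.021 over all genes, and with adjusted p of 0.9996 for each. Cldn4 averaged 7.51 ± 0.92 in Fgf10+/- (n = 2) and 6.55 ± 1.26 in wild type (n = 6), a difference of 0.96 (interval -0.61 to 2.52). Itgb6 averaged 8.40 ± 1.10 in Fgf10+/- and 7.58 ± 0.44 in wild type, a difference of 0.82 (interval -0.24 to 1.87). Krt7 averaged 10.71 ± 0.53 in Fgf10+/- and 10.07 ± 0.21 in wild type, a difference of 0.64 (interval -0.12 to 1.40). These 3 differences depended on which of the 2 Fgf10+/- hyperoxia arrays was used: without replicate 1 they were 1.61 for Cldn4, 0.037 for Itgb6 and 0.27 for Krt7, and without replicate 2 they were 0.30, 1.59 and 1.01 in the same order. Hbegf was the exception, at -0.02, and it turned positive with median centring (0.003). With the AT1 marker mean as a covariate, again a setting chosen after seeing the data, Itgb6 differed by -0.060 and Krt7 by 0.14. Without the covariate, the other features of Cldn4, Itgb6 and Krt8 differed by 0.53, 0.50 and 0.44.

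The interaction, which asks whether the hyperoxia difference itself differed between Fgf10+/- and wild-type cells, called 0 of 9 genes, when 0.00965% of all genes were called (2 genes). It was largest for Cldn4, at 0.90 with an interval of -1.17 to 2.97, and lay between -0.11 (Itgb6) and 0.54 (Sfn) for the rest, with adjusted p of 0.9999 throughout. Intervals this wide include differences of several fold. The other Cldn4 feature gave 0.43, less than Sfn, so the rank of Cldn4 depended on the feature. The other features of Krt8 and Itgb6 gave 0.50 and 0.04. The comparisons share arrays: each hyperoxia or normoxia group enters a hyperoxia comparison, a genotype comparison and the interaction, so their differences are not separate evidence.

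**Figure D2:**
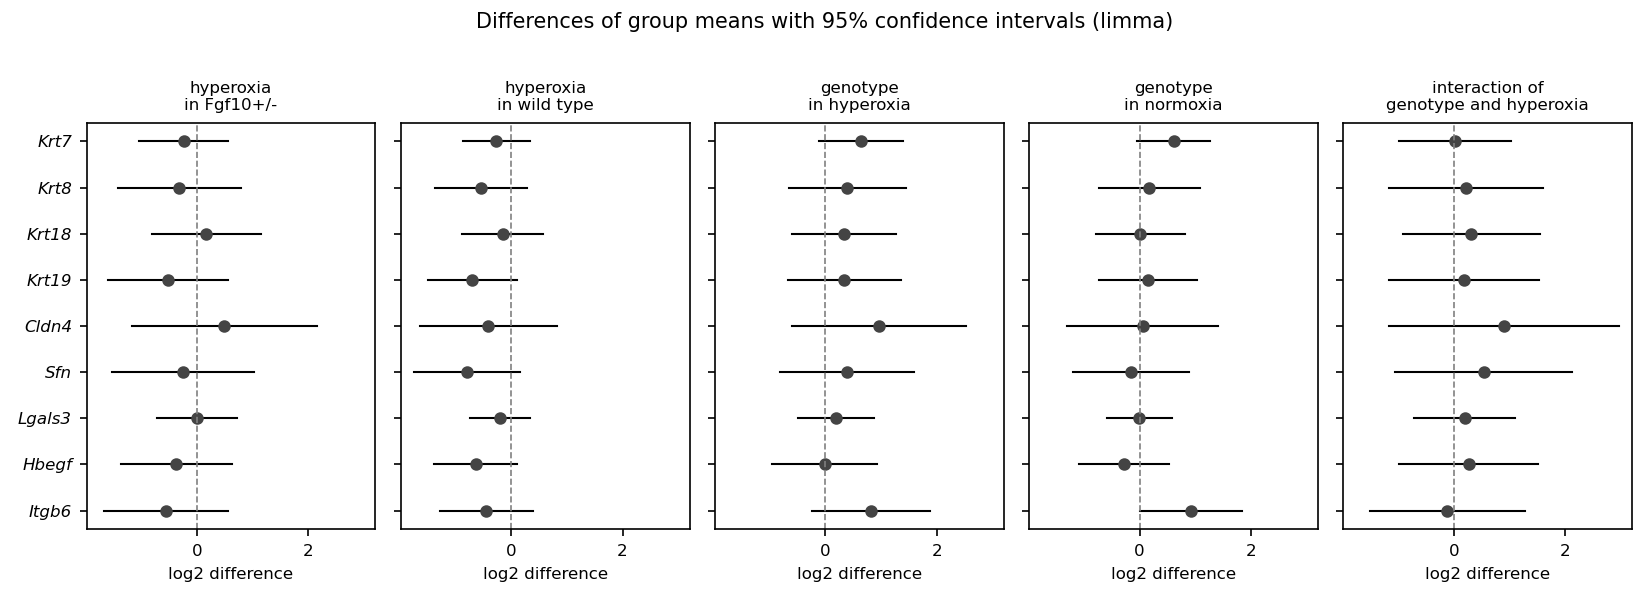
Differences of group means (x axis, log2) for the 9 genes (rows) in the 5 comparisons (panels), as limma estimates (points) with 95% confidence intervals (lines) and a dashed line at 0. In each panel the intervals include 0, except that of Itgb6 for genotype in normoxia, whose lower end is 0.01.

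The 9 genes varied together from array to array. Over the 36 gene pairs, Pearson r across 16 arrays ran from 0.331 to 0.973 with a median of 0.774, and 17 pairs were over 0.8. After the group means were taken out, the median was 0.817. The closest pairs were Krt8 with Krt19 (r = 0.973, Spearman rho = 0.971) and, once group means were removed, Krt18 with Krt19 (0.978) and Krt8 with Krt18 (0.977). Itgb6 was the loosest member: Cldn4 with Itgb6 gave the lowest r (0.331), and the 28 pairs without Itgb6 all had r of at least 0.493. Its closest partner was Krt7 (r = 0.888, rho = 0.876). These values are a description of 16 arrays that share RNA, normalization and cell make-up.

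The arrays can be ordered by the mean of the 9 standardised levels, in SD units over the 16 arrays. The lowest were wild-type hyperoxia replicate 5 (-1.49), wild-type hyperoxia replicate 1 (-1.31) and wild-type normoxia replicate 1 (-1.26). The highest were Fgf10+/- normoxia replicate 3 (1.24) and wild-type normoxia replicates 2 (1.22) and 3 (1.19). Low and high arrays therefore came from the same group, wild-type normoxia, as well as from different ones. The 2 Fgf10+/- hyperoxia arrays lay in the middle, at 0.335 and -0.008.

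**Figure D3:**
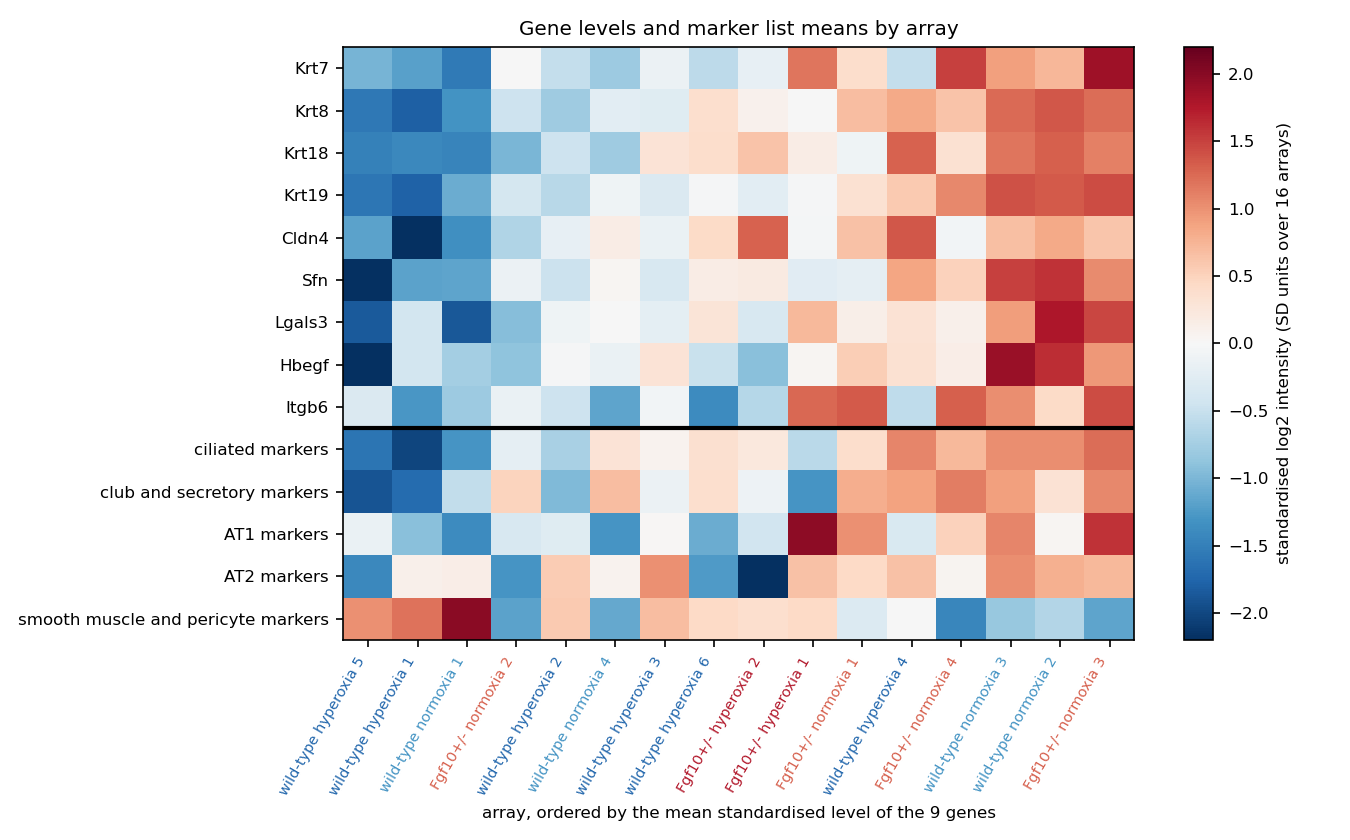
Standardised log2 levels (colour, SD units over 16 arrays) of the 9 genes and of 5 marker list means (rows) on each array (columns, ordered from the lowest to the highest mean of the 9 genes, with names coloured by group). The gene rows change colour together, the ciliated and club rows follow them, and the smooth muscle and pericyte row runs the other way.

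The order of the arrays followed markers of ciliated cells, which line the airways. The mean of 7 ciliated markers, among them the transcription factor Foxj1, was 7.67 to 8.33 in Fgf10+/- hyperoxia, 7.98 to 9.12 in Fgf10+/- normoxia, 6.53 to 9.0 in wild-type hyperoxia and 7.11 to 8.96 in wild-type normoxia. Its r with the mean of the 9 genes was 0.907. Among single genes, r with the ciliated mean was 0.960 for Krt8 (rho = 0.947; 0.930 without the 2 arrays farthest from the median; 0.956 after group means were removed), 0.940 for Krt19, 0.914 for Sfn, and 0.880 for both Krt18 and Cldn4. It was lower for Lgals3 (0.739), Hbegf (0.700), Krt7 (0.659) and Itgb6 (0.458). None of the ciliated markers was called in any comparison, when 2.45% (Fgf10+/-) and 3.13% (wild type) of all genes were called with hyperoxia. Shares of this size correspond to less than 1 gene in 7. The median difference of the ciliated markers with hyperoxia was -0.712 in Fgf10+/- cells and -0.645 in wild-type cells. The medians of the 9 genes were -0.259 and -0.446.

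Itgb6 and Krt7 followed AT1 markers instead. With the mean of 11 AT1 markers, among them Ager, Hopx and Pdpn, r was 0.925 for Itgb6 (rho = 0.924; 0.925 without the 2 farthest arrays; 0.957 after group means were removed) and 0.857 for Krt7, against 0.532 for Krt8 and 0.339 for Cldn4. Hbegf had the highest r with the AT2 marker mean (0.763), where Cldn4 had 0.084.

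Other cell types ran with the 9 genes less closely or in the other direction. The club and secretory marker mean, 9.68 to 11.6 in Fgf10+/- hyperoxia, 12.6 to 13.6 in Fgf10+/- normoxia, 8.71 to 13.2 in wild-type hyperoxia and 10.9 to 13.2 in wild-type normoxia, had r = 0.722 with the mean of the 9. The mean of the 6 basal markers had r = 0.719. The smooth muscle and pericyte mean had r = -0.69, the ILC2, mast cell and basophil mean r = -0.714, and the mesothelial mean r = 0.215. What part these cells had in the levels was not tested.

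**Figure D4:**
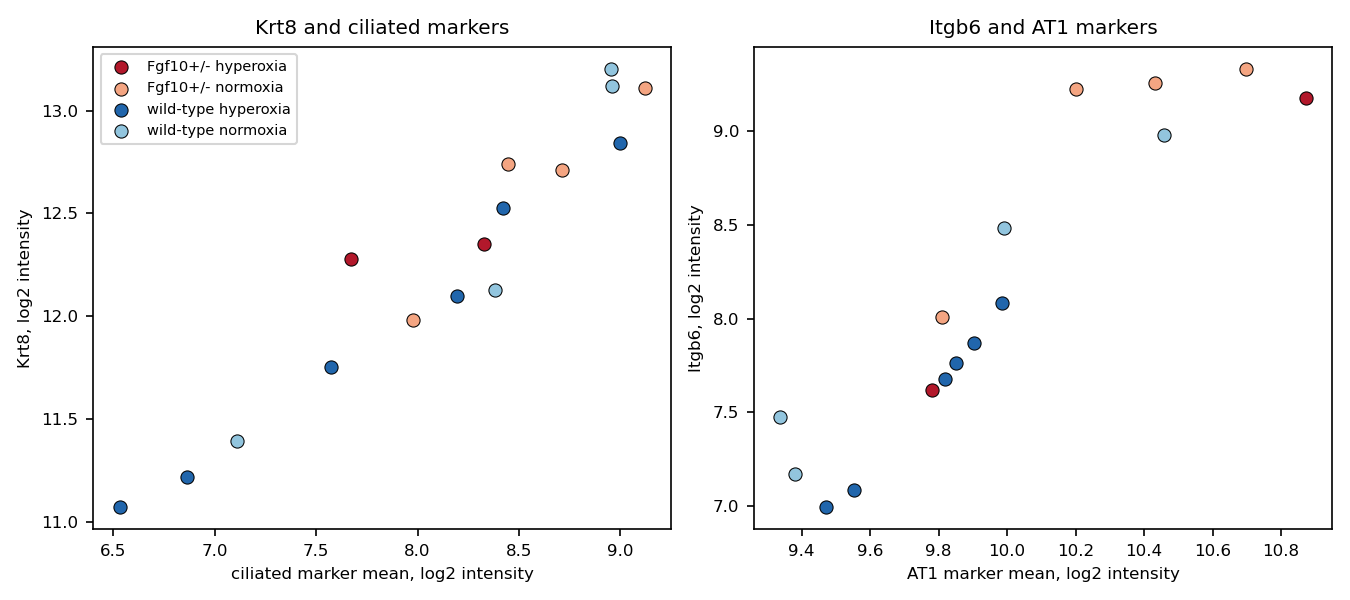
Krt8 against the mean of the ciliated markers (left) and Itgb6 against the mean of the AT1 markers (right), all in log2 intensity, 1 point per array, coloured by group. Arrays of all 4 groups lie along the same band in each panel (r = 0.960 and 0.925).

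By the rule for likeness, the genes outside the 9 whose profile was most like their mean were Lsr, a receptor gene of tricellular junctions (r = 0.955), the zinc transporter gene Slc39a4 (0.954), Sec14l3 (0.954), the desmosome gene Perp (0.953) and Tmem184a (0.951), each over 16 arrays. The genes most like Krt8 alone were Sec14l3 (0.988), the cilium gene Ccdc113 (0.982), Neurl1a (0.975), Perp (0.973) and Slc39a4 (0.970).

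Related genes were read from lists around each role. None of the 15 genes of the EGF ligand and receptor list was called in any comparison. With hyperoxia 2.45% of all genes were called in Fgf10+/- cells and 3.13% in wild-type cells. Such shares correspond to less than 1 gene in this list, and likewise in the integrin and Ywha lists below. Its members named by the rule were Errfi1, a feedback inhibitor of the EGF receptor, which averaged 12.45 ± 0.31 in Fgf10+/- hyperoxia, 11.97 ± 0.49 in Fgf10+/- normoxia, 12.25 ± 0.44 in wild-type hyperoxia and 12.66 ± 0.65 in wild-type normoxia, and Rhbdf1, a regulator of ligand shedding, which lay between 8.75 and 9.55 on every array. None of the 16 measured genes of the integrin and TGF-beta activation list (18 listed) was called. Thbs1, which can activate latent TGF-beta, averaged 10.70 ± 0.51 in wild-type hyperoxia and 11.51 ± 0.67 in wild-type normoxia (adjusted p = 0.172), and the integrin subunit gene Itga6 averaged 11.37 ± 0.04 in Fgf10+/- hyperoxia and 10.69 ± 0.31 in Fgf10+/- normoxia (adjusted p = 0.254). None of the 6 Ywha genes, the relatives of Sfn, was called. Ywhae differed by -0.54 in wild-type hyperoxia against normoxia with adjusted p = 0.0677, and Ywhaq by -0.49 with adjusted p = 0.0949.

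Of the other galectins, 2 of 8 changed with hyperoxia in Fgf10+/- cells, when 2.45% of all genes were called, and 1 of these 2 in wild-type cells, when 3.13% were. Lgals4, an epithelial galectin known from the gut, measured 7.005 and 7.18 in Fgf10+/- hyperoxia, against 5.43, 5.79, 6.08 and 5.30 in Fgf10+/- normoxia. In wild-type hyperoxia it ranged from 6.79 through 7.38 to 7.94, against 5.56, 5.59, 5.99 and 5.81 in wild-type normoxia. Every hyperoxia array lay above every normoxia array. It rose by 1.64 in wild-type cells (limma adjusted p = 0.000453), a call kept with each array left out in turn, and by 1.44 in Fgf10+/- cells (limma adjusted p = 0.0175). The Fgf10+/- call was lost without hyperoxia replicate 1 (difference 1.53, adjusted p = 0.0984) or replicate 2 (1.35, adjusted p = 0.132). The 2 further Lgals4 features differed by 1.78 and 1.07 in wild-type cells and by 1.61 and 1.54 in Fgf10+/- cells.

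Lgals7, the galectin of stratified epithelium, fell in Fgf10+/- cells. It measured 4.07 and 4.20 in Fgf10+/- hyperoxia, against 6.71, 6.13, 5.78 and 6.14 in Fgf10+/- normoxia. In wild-type cells it averaged 4.73 ± 0.29 in hyperoxia and 5.04 ± 0.52 in normoxia. The difference was -2.06 in Fgf10+/- cells (limma adjusted p = 0.00459) and -0.31 in wild-type cells (adjusted p = 0.548), and the interaction did not pass (-1.75, adjusted p = 0.893). Without hyperoxia replicate 1 the call was lost (-1.99, adjusted p = 0.0615). The gene is dim in hyperoxia, near the median of all values.

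Among the other keratins and their partners, 1 of 17 was called with hyperoxia in Fgf10+/- cells, a count near the share of all genes called (2.45%). In wild-type cells 0 of 17 were called, when 3.13% of all genes were. Krt17, a keratin of basal and stressed epithelium, fell in Fgf10+/- cells, with 4.02 and 3.37 in hyperoxia against 5.87, 6.11, 4.91 and 6.30 in normoxia (-2.10, limma adjusted p = 0.048). In wild-type cells the difference was -1.49 with adjusted p = 0.0522. Both Fgf10+/- hyperoxia values lay below the median of all values, 4.34, which limits how well the size of the difference is known. The Fgf10+/- call was lost without normoxia replicate 1, 2 or 4 or without hyperoxia replicate 1 or 2 (differences -1.78 to -2.43, adjusted p 0.0923 to 0.306), with median centring (adjusted p = 0.057), with the mean of all features per gene (0.0576), and with the ciliated (0.0527) or AT1 (0.054) marker mean as a covariate.

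Of the 14 measured claudin and tight junction genes (15 listed), 1 was called with hyperoxia in Fgf10+/- cells, again near the share of all genes called (2.45%). In wild-type cells 0 were called, when 3.13% of all genes were. Cldn5, which is also a marker of endothelium, rose in Fgf10+/- cells, with 11.19 and 12.42 in hyperoxia against 10.25, 9.68, 9.68 and 9.30 in normoxia (2.08, limma adjusted p = 0.0174). In wild-type cells the difference was 0.75 with adjusted p = 0.205. The endothelial marker mean, to which Cldn5 belongs, was 7.72 to 9.24 in Fgf10+/- hyperoxia and 7.26 to 7.80 in Fgf10+/- normoxia, and its part in the result was not tested. Without hyperoxia replicate 2 the difference was 1.46 and the call was lost (adjusted p = 0.219).

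Among 32 further genes of the injury-induced transitional state, 1 rose and 2 fell with hyperoxia in Fgf10+/- cells, when 2.45% of all genes were called, and 2 fell in wild-type cells, when 3.13% were. Shares of this size correspond to about 1 gene in 32. Ndrg1, a stress and differentiation gene, fell in both. It measured 7.76 and 8.51 in Fgf10+/- hyperoxia, against 9.76, 10.49, 9.46 and 10.10 in Fgf10+/- normoxia (-1.82, limma adjusted p = 0.0174). In wild-type hyperoxia it ranged from 8.11 through 8.53 to 9.004, against 9.43, 10.23, 9.22 and 10.26 in wild-type normoxia (-1.21, limma adjusted p = 0.0211). All hyperoxia arrays lay below all normoxia arrays. The call was lost in Fgf10+/- cells without hyperoxia replicate 1 (-1.45, adjusted p = 0.195), and in wild-type cells without normoxia replicate 2 (-1.06, adjusted p = 0.0902), without normoxia replicate 4 (-1.05, adjusted p = 0.0883) or without normoxia replicates 1 and 4 together (-1.16, adjusted p = 0.117).

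Basp1, a membrane-bound signalling protein gene, fell in Fgf10+/- cells, with 4.82 and 5.51 in hyperoxia against 6.70, 6.78, 6.49 and 6.93 in normoxia (-1.56, limma adjusted p = 0.00696). In wild-type cells the difference was -0.63 (adjusted p = 0.0966). The call in Fgf10+/- cells was lost without hyperoxia replicate 1 (-1.21, adjusted p = 0.124). Gdf15, a stress-induced cytokine gene, rose in Fgf10+/- cells, with 7.39 and 7.91 in hyperoxia against 6.22, 6.42, 6.39 and 5.94 in normoxia (1.41, limma adjusted p = 0.0335). In wild-type cells Gdf15 averaged 8.37 ± 0.41 in hyperoxia and 7.75 ± 0.45 in normoxia, a difference of 0.62 without a call (limma adjusted p = 0.191). Fgf10+/- against wild-type cells differed by -1.51 in normoxia (limma adjusted p = 0.0952) and by -0.72 in hyperoxia (limma adjusted p = 0.9996). The Gdf15 call was lost without normoxia replicate 1 or 4 or without hyperoxia replicate 1 or 2 (differences 1.15 to 1.67, adjusted p 0.0647 to 0.278).

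S100a11, a calcium-binding protein gene, fell in wild-type cells, where it averaged 10.07 ± 0.40 in hyperoxia and 11.19 ± 0.56 in normoxia (-1.12, limma adjusted p = 0.0371). The difference in Fgf10+/- cells was of the same size (-1.12) with adjusted p = 0.133. The wild-type call was lost without hyperoxia replicate 1, 2 or 5 or without normoxia replicate 2, 3 or 4 (differences -0.91 to -1.24, adjusted p 0.0504 to 0.12). None of the related genes was called for genotype or for the interaction, when at most 0.00965% of all genes were called.

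Several of these calls also depended on the arrays in the fit or on whether markers of other cell types were a covariate. In Fgf10+/- cells the calls of Krt17, Cldn5, Lgals4, Ndrg1 and Gdf15 were lost with only the 2 groups compared in the fit, with thymocyte markers adjusted for by their mean on each array, and with smooth muscle and pericyte markers adjusted for in the same way, a setting chosen after seeing the data (adjusted p 0.0535 to 0.278). In wild-type cells the Ndrg1 call was lost with either covariate (adjusted p = 0.102 and 0.0753), and the S100a11 call with the smooth muscle and pericyte covariate (adjusted p = 0.117), with only the 2 groups in the fit (0.0625) and with median centring (0.0582). The smooth muscle and pericyte mean was 8.02 to 8.10 in Fgf10+/- hyperoxia, 6.31 to 7.40 in Fgf10+/- normoxia, 7.66 to 8.82 in wild-type hyperoxia and 6.60 to 9.57 in wild-type normoxia. Basp1 and Lgals7 in Fgf10+/- cells and Lgals4 in wild-type cells kept their calls under all of these settings.

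**Figure D5:**
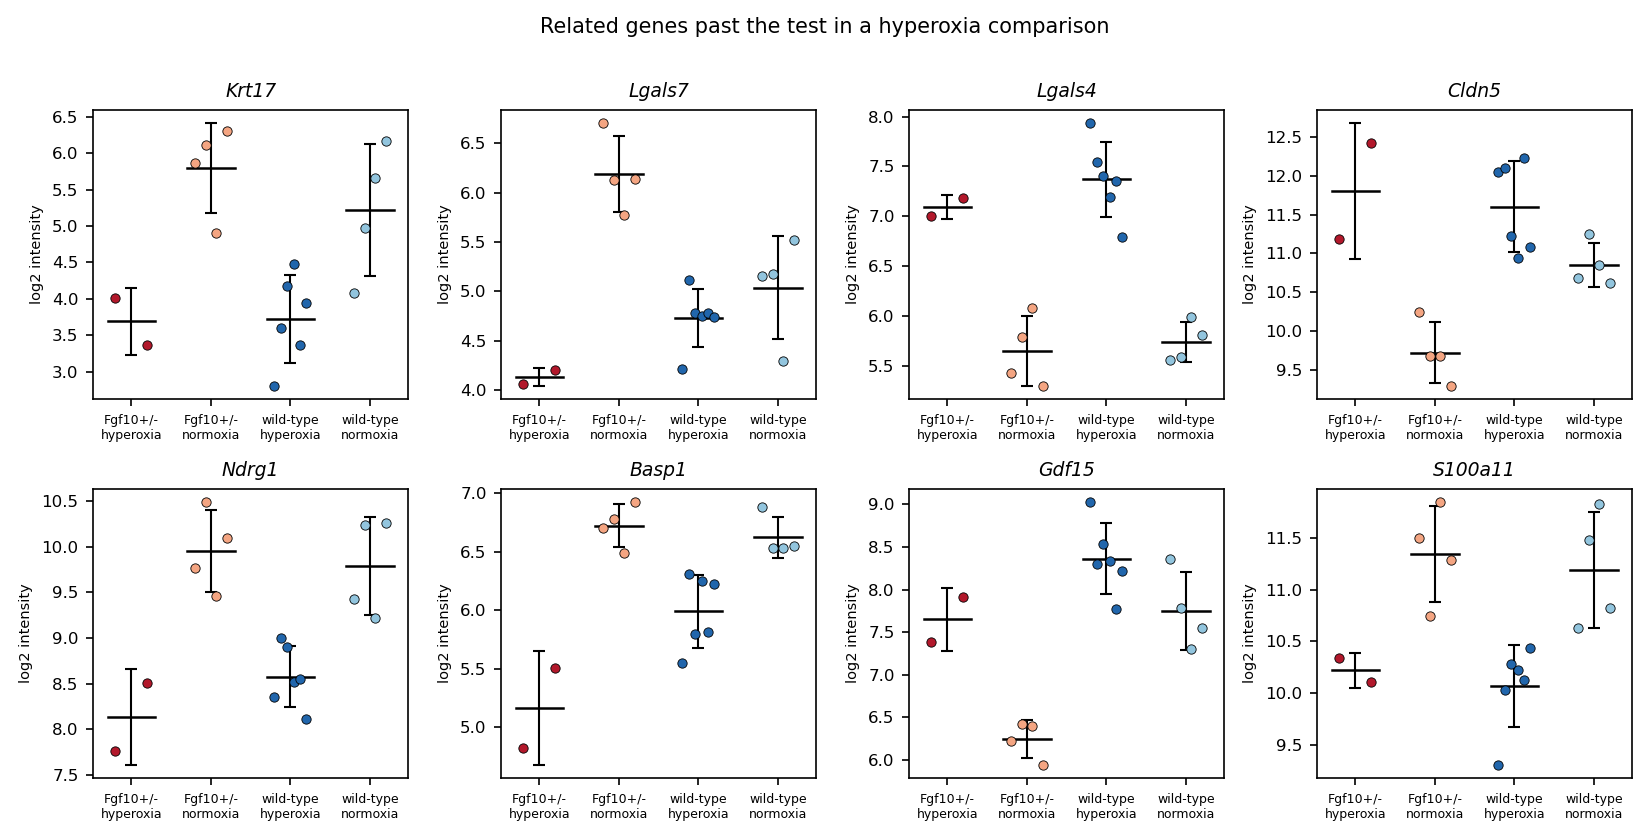
Log2 intensity (y axis, a scale of its own for each gene) of the 8 related genes called in a hyperoxia comparison, by group (x axis), with points for arrays, bars for means and whiskers for SD. Lgals4 is higher and Ndrg1 lower on all 8 hyperoxia arrays than on all 8 normoxia arrays.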

How the data were processed

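Per the labels' protocols, RNA of AT2 cells was labelled with Cy3 and hybridised to single-colour Agilent arrays (16 samples). The deposited values were log2 intensities, as judged by their limits of -0.4 and 15.98. Once sorted, values at the same rank differed by no more than 0.204 between arrays, so the authors had brought them to a shared distribution before depositing them. The normalization software, any background correction, the base of the logarithm, detection flags, slides and scan dates were not given in the sources used here.

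Of 62976 features, 65 with a missing value were left out, 31465 had 1 listed gene symbol and 31511 had none. Symbols were updated through RefSeq gene tables (GRCm38.p6), by accession for 29036 features, by symbol for 2075 and by synonym for 349, and 5 kept the listed name. The named features covered 20725 genes, of which 6165 had several features. Group means were fitted to all 16 arrays by the lmFit, contrasts.fit and eBayes functions of limma (version 3.58.1, R 4.3.3), and p-values were adjusted by Benjamini-Hochberg over all genes. The fit was tested on simulated data. The number of arrays limits the precision.

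The members and the lists of related and marker genes were chosen with earlier results of these data known. All members were named, with up to 3 called genes per related list and comparison, or the 2 with the highest mean where none was called. The 5 genes most like the members had the highest r over the arrays, without predicted or clone-named genes. Deviations from group means had r from -0.16 to 0.24 between same-numbered arrays of different groups and -0.352 to 0.27 between differently numbered ones. The replicate numbers were therefore not taken as pairs. Alternatives covered normalization, feature choice, dim genes, the variance model, array weights, the arrays in the fit, a replicate block, marker covariates and each array left out in turn. The covariates of ciliated, AT1 and smooth muscle markers were added after the data had been seen.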

Additional observations from a re-analysis of the deposited data

Results flagged for a closer look

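In 5 of 78 groups of values (26 features in the groups of 4 or 6 arrays) a single array lay far from the rest of its group, by Dixon's criterion at the level where chance marks about 5% of groups. Lgals3 was at 11.84 in wild-type hyperoxia replicate 5, against 12.38 to 12.64 on the other arrays of the group. Hbegf was at 8.85 in the same array, against 9.86 to 10.36. That array also had the lowest mean of the 9 genes. Itgb6 was at 8.01 in Fgf10+/- normoxia replicate 2, against 9.22 to 9.33. Basp1 was at 6.88 in wild-type normoxia replicate 1, against 6.53 to 6.55. S100a11 was at 9.31 in wild-type hyperoxia replicate 1, against 10.04 to 10.43.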

How the results depend on the processing

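The count of 0 called among the 9 genes was the same under every alternative run, for each of the 5 comparisons; the smallest adjusted p in 963 refits was 0.0548 (Cldn4, 1.18, hyperoxia in Fgf10+/- with the ciliated covariate). For hyperoxia in Fgf10+/-, 507 genes were called over the whole array, against 332 with the mean of all features, 792 with genes over a mean of 6 only, 261 with only the groups compared, 103 with the replicate block, 122 with the thymocyte covariate, 113 with the smooth muscle and pericyte covariate, and 90 to 503 with each array left out in turn. For hyperoxia in wild type, 649 genes were called over the whole array, against 1172 with genes over a mean of 6 only, 1000 with a variance trend and robust prior, 216 with the replicate block, 290 without wild-type normoxia replicates 1 and 4, 426 with the smooth muscle and pericyte covariate, and 323 to 679 with each array left out in turn. For genotype in hyperoxia, 0 genes were called over the whole array, and 0 to 4 with each array left out in turn. For genotype in normoxia, 2 genes were called over the whole array, against 7 with genes over a mean of 6 only, 8 with a variance trend and robust prior, 11 with array weights, 0 with only the groups compared, with the replicate block, without wild-type normoxia replicates 1 and 4, with the smooth muscle and pericyte covariate and with the AT1 covariate, 5 with the ciliated covariate, and 0 to 9 with each array left out in turn. For the interaction, 2 genes were called over the whole array, against 0 with genes over a mean of 6 only, with a variance trend and robust prior, with the replicate block, without wild-type normoxia replicates 1 and 4, with the thymocyte covariate, with the smooth muscle and pericyte covariate and with the ciliated covariate, and 0 to 3 with each array left out in turn. Median centring gave 270 higher and 167 lower genes for hyperoxia in Fgf10+/- (245 and 262 without it) and 509 higher and 161 lower in wild type (367 and 282 without it). Of the 963 refits of single genes, 99 changed sign, always between values that no fit called. The causes of these changes were not tested.

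With the smooth muscle and pericyte covariate, hyperoxia in Fgf10+/- gave Krt7 0.22, Krt8 0.42, Krt19 0.25, Sfn 0.70, Lgals3 0.44 and Hbegf 0.092, hyperoxia in wild type gave Krt18 0.19, Cldn4 0.21 and Lgals3 0.052 and genotype in normoxia gave Krt8 -0.28, Krt18 -0.35, Krt19 -0.30 and Cldn4 -0.60. With the replicate block, hyperoxia in Fgf10+/- gave Krt8 0.004, Sfn 0.077 and Lgals3 0.12 and the interaction gave Itgb6 0.013. With the ciliated covariate, hyperoxia in Fgf10+/- gave Krt8 0.13, Sfn 0.24 and Lgals3 0.20, hyperoxia in wild type gave Krt18 0.25, Cldn4 0.30 and Lgals3 0.017 and genotype in normoxia gave Krt18 -0.13, Krt19 -0.005 and Cldn4 -0.20. With the thymocyte covariate, hyperoxia in Fgf10+/- gave Krt18 -0.44, genotype in normoxia gave Sfn 0.047 and Lgals3 0.10 and the interaction gave Krt7 -0.15 and Krt19 -0.034. With median centring, hyperoxia in Fgf10+/- gave Lgals3 0.092, genotype in hyperoxia gave Hbegf 0.003 and genotype in normoxia gave Lgals3 0.033. With the AT1 covariate, genotype in hyperoxia gave Krt8 -0.053, Krt18 -0.064, Krt19 -0.16, Lgals3 -0.13 and Itgb6 -0.06, genotype in normoxia gave Krt8 -0.22, Krt18 -0.34, Krt19 -0.28 and Cldn4 -0.25 and the interaction gave Krt7 -0.036. Without wild-type normoxia replicates 1 and 4, genotype in normoxia gave Krt8 -0.53, Krt18 -0.62, Krt19 -0.53 and Cldn4 -0.60 and the interaction gave Itgb6 0.59. With array weights, genotype in normoxia gave Krt18 -0.073 and Cldn4 -0.19 and the interaction gave Krt7 -0.033. With each array left out in turn, hyperoxia in Fgf10+/- ranged over Krt7 -0.61 to 0.13, Krt18 -0.03 to 0.35, Cldn4 -0.17 to 1.14, Lgals3 -0.20 to 0.19 and Itgb6 -1.34 to 0.22. For single arrays left out, hyperoxia in wild type ranged over Krt18 -0.43 to 0.067. For single arrays left out, genotype in hyperoxia ranged over Lgals3 -0.006 to 0.39 and Hbegf -0.30 to 0.27. For single arrays left out, genotype in normoxia ranged over Krt8 -0.18 to 0.42, Krt18 -0.26 to 0.24, Krt19 -0.19 to 0.39, Cldn4 -0.41 to 0.32, Sfn -0.58 to 0.14 and Lgals3 -0.26 to 0.19. For single arrays left out, the interaction ranged over Krt7 -0.35 to 0.40, Krt8 -0.024 to 0.58, Krt19 -0.052 to 0.53, Lgals3 -0.002 to 0.45, Hbegf -0.019 to 0.55 and Itgb6 -0.89 to 0.67. The replicate block called none of the 9 genes. Among the related genes, it ended the Fgf10+/- calls of Krt17 (adjusted p = 0.132), Cldn5 (0.0593), Lgals4 (0.0645) and Gdf15 (0.101) and the wild-type calls of Ndrg1 (0.0509) and S100a11 (0.063); the array numbers were not taken as pairs. In hyperoxia, signals near or below the median of all values limit Krt17 and Lgals7.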
